A study of Macaca mulatta with 30 samples.

Results

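The genes described here are markers of macrophages and monocytes in the fetal lung: the scavenger receptors CD163, MRC1, MSR1 and MARCO, the pattern receptor CD14, the lysosomal protein CD68, and VCAN, S100A8 and S100A9, which are used to mark monocytes. The rule takes genes by their symbol in the Ensembl rhesus annotation and uses no measured value. The symbols themselves were drawn up with earlier results of these data known. Of 9 members, 8 had a row among the 30246 gene identifiers of the lung table, and 7 were among the 17644 genes with enough reads to be tested. S100A8 was not analysed here in lung, and MARCO had too few reads for a test.

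Time-pregnant rhesus macaques, all wild type, were given an intramuscular injection of saline, of the clinical drug or of Beta-Ac. The clinical drug is Celestone, a mix of betamethasone phosphate and betamethasone acetate, given at 0.25 mg/kg, and fetuses were delivered 4 h or 5 d later. Beta-Ac is betamethasone acetate alone, given at 0.125 mg/kg, and fetuses were delivered 6 h or 5 d later. The labels give a gestational age between 124 and 130 days for the lung libraries. The authors report a later mean age at delivery, and this difference was not resolved here. RNA was sequenced from whole fetal lung tissue, with 3 fetuses in each of 5 groups, and every drug group was compared with the same 3 saline libraries.

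Fetal lung macrophages descend from yolk sac and fetal liver precursors that settle in the lung mesenchyme, and alveolar macrophages mature from fetal monocytes around birth. Scavenger receptors take up modified lipoproteins, glycoproteins, microbes and cell debris. CD163 binds haptoglobin-hemoglobin complexes and MRC1, the mannose receptor, binds mannose-ended glycans. Glucocorticoids are known to raise CD163 in cultured monocytes, and to favour a clearance program that includes the receptor kinase MERTK, which takes up dying cells.

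Levels are CPM (reads of a gene scaled to 1 M reads of its library) after TMM scaling, which corrects for differences in depth and composition between libraries. Since gene lengths of the build were not used here, levels are compared between libraries and not between genes. A gene is called changed where edgeR's quasi-likelihood test gave a fold change of at least 1.5, an unadjusted p under 0.05 and a Storey q under 0.1, where q is the p adjusted over all 17644 genes. In whole tissue, fewer cells of a type and less RNA per cell cannot be told apart.

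Reads counted on genes ran from 14.1 M to 45 M per library, with both extremes among the 4 h clinical drug libraries, replicates 2 and 1. FKBP5, which glucocorticoid receptor activates, checked that drug had reached the fetal lung, with a mean of 5.61 ± 0.296 CPM (SD, n = 3) in saline, 173 ± 49.6 CPM at 4 h after the clinical drug and 52 ± 47.1 CPM at 6 h after Beta-Ac. All 9 lung epithelial markers, among them NKX2-1 and SFTPC, had reads in every library. Replicate 2 of the 4 h clinical drug group stood apart in macrophage and monocyte genes and was the lowest library in lymphocyte genes. There the median difference from the saline mean on the log2 CPM scale was -0.93 over 30 other macrophage and monocyte genes and -2.05 over 3 lymphocyte genes. In the lymphocyte genes replicate 1 of that group was also low, at -1.41, and replicate 3 was at -0.24. Results that rest on replicate 2 are given with and without it.

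Of the 3 scavenger receptors tested among the members, only CD163 passed the test against saline, at 4 h after the clinical drug. CD163 (ENSMMUG00000005150) measured 13.5, 5.2 and 10.5 CPM in the 3 saline libraries. It measured 51.8, 10.9 and 39.4 CPM at 4 h after the clinical drug. Replicates 1 and 3 were above every other lung library, while replicate 2 lay within the saline range. In the 6 h Beta-Ac group CD163 measured 11.9, 13.2 and 22.7 CPM, and a single library was above the saline range. At 5 d it measured 11.1, 14.5 and 9.17 CPM after the clinical drug and 14.7, 11.1 and 11.6 CPM after Beta-Ac, and both groups overlapped the saline libraries.

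CD163 rose 3.5-fold at 4 h after the clinical drug, a log2 fold change of 1.81 ± 0.46 (SE, 95% confidence interval 0.82 to 2.80, q = 0.0232). Called genes were 7.4% of all genes tested in this comparison and 3.46% were called higher, and CD163 was the only member called higher of 7 tested. The log2 fold change ran from 1.35 to 2.21 as each animal of the 2 groups was left out, and the call was kept each time, but a fit of only these 2 groups gave q = 0.104. For Beta-Ac at 6 h the log2 fold change was 0.70 ± 0.46 with q = 0.434, and its 95% confidence interval ran from -0.27 to 1.68. Neither log2 fold change at 5 d was called, with 0.24 ± 0.46 in the clinical drug group and 0.35 ± 0.46 in the Beta-Ac group.

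**Figure D1:**
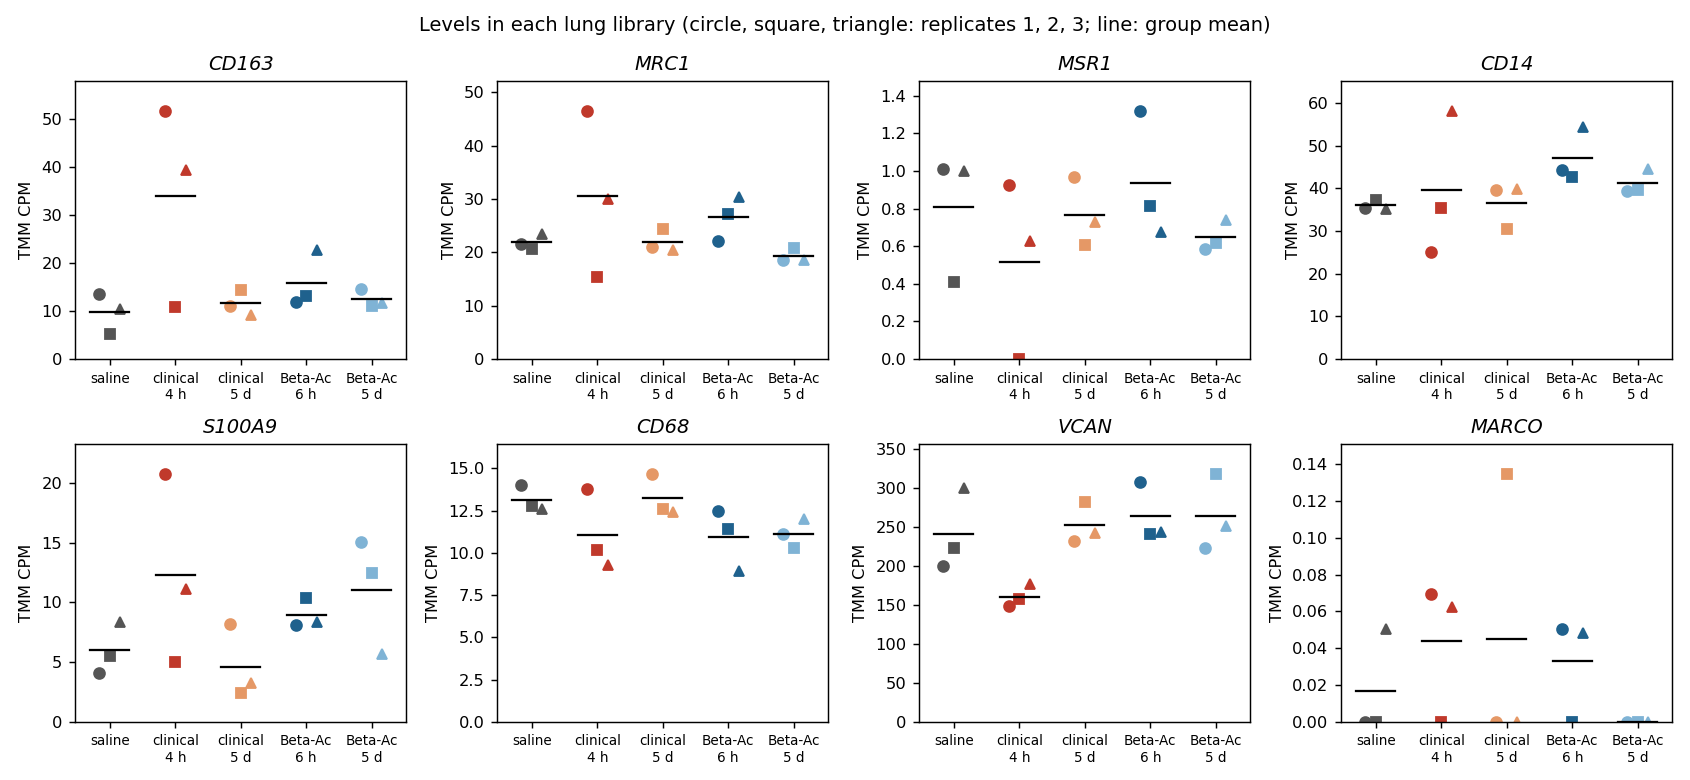
TMM-scaled CPM of 8 genes in each of the 15 lung libraries, in 5 groups of 3 fetuses; each vertical axis starts at 0, shapes mark replicates and lines mark group means. CD163 is high in replicates 1 and 3 of the 4 h clinical drug group (51.8 and 39.4 CPM) and not in replicate 2 (10.9 CPM), and VCAN is lower in all 3 libraries of that group than in any other library.

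MRC1 (ENSMMUG00000011620) was even among saline libraries, with 21.6, 20.6 and 23.5 CPM. At 4 h after the clinical drug it measured 46.5, 15.4 and 30 CPM, so that replicate 1 held the highest and replicate 2 the lowest level of any lung library. The log2 fold change was 0.50 ± 0.27 with q = 0.241, and MRC1 was not called. Without replicate 2 of the 4 h group it was 0.79 with q = 0.0149, past the threshold, and leaving out each animal in turn gave values from 0.04 to 0.79. After 6 h of Beta-Ac MRC1 measured 22.2, 27.1 and 30.4 CPM, a log2 fold change of 0.28 ± 0.27 with q = 0.545. At 5 d its levels were 21, 24.3 and 20.4 CPM after the clinical drug and 18.5, 20.8 and 18.5 CPM after Beta-Ac. The Beta-Ac groups at 6 h and 5 d did not overlap in MRC1, at a log2 difference of 0.47 ± 0.27 (q = 0.629), in a comparison where 7% of all genes tested had groups that did not overlap with 6 h higher.

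MSR1, the class A scavenger receptor (ENSMMUG00000002296), was sparse, with 265 reads over all 15 libraries. It measured 1.01, 0.411 and 1 CPM in saline libraries and 0.926, 0 and 0.626 CPM at 4 h after the clinical drug. The 0 was in replicate 2, where 3 reads would have been 0.224 CPM. The 6 h Beta-Ac libraries measured 1.32, 0.814 and 0.675 CPM. The groups overlapped, and the log2 fold changes of -0.53 ± 0.66 (clinical drug) and 0.19 ± 0.65 (Beta-Ac) were smaller than their standard errors. At 5 d MSR1 measured 0.968, 0.607 and 0.729 CPM after the clinical drug and 0.586, 0.617 and 0.737 CPM after Beta-Ac, with a log2 fold change for Beta-Ac of -0.33 ± 0.65. The 95% confidence interval for the clinical drug at 4 h ran from -1.95 to 0.89, and differences within it were not excluded by these libraries.

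MARCO, the class A scavenger receptor that marks alveolar macrophages in adult lung, had 11 reads in all. It was at 0 in 9 of 15 libraries, with at most 4 reads in any, and in those 9 a count of 0 allows up to 0.106 to 0.224 CPM depending on the depth of the library. This limit covers counting error only.

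CD14, which passes lipopolysaccharide to TLR4, was level in the saline libraries at 35.5, 37.3 and 35.2 CPM (ENSMMUG00000010007). At 4 h after the clinical drug it measured 25, 35.4 and 58.2 CPM, a wider range than in any other group. The log2 fold change was 0.13 ± 0.22 with q = 0.564, and it was -0.27 without replicate 3. After Beta-Ac CD14 measured 44.3, 42.6 and 54.3 CPM at 6 h, and at 5 d 39.5, 39.6 and 44.6 CPM. All 3 libraries of each Beta-Ac group were above the saline libraries, but the log2 fold changes of 0.39 ± 0.22 (q = 0.399) and 0.20 ± 0.22 (q = 0.879) were not called. Groups did not overlap with the treated group higher in 9.03% of all genes tested at 6 h and in 5.73% at 5 d. The clinical drug at 5 d gave 39.6, 30.4 and 39.8 CPM and overlapped saline.

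CD68, a glycoprotein of late endosomes and lysosomes that macrophages hold in quantity, stayed short of the test in every comparison (ENSMMUG00000013501). Saline libraries measured 14, 12.8 and 12.6 CPM, and the 4 h clinical drug libraries 13.8, 10.2 and 9.26 CPM. The log2 fold change was -0.24 ± 0.17 with q = 0.342. After Beta-Ac CD68 measured 12.5, 11.4 and 8.92 CPM at 6 h and 11.1, 10.3 and 12 CPM at 5 d, every library being below the saline libraries. The log2 fold changes of -0.27 ± 0.17 (q = 0.428) and -0.24 ± 0.17 (q = 0.806) did not pass the test, and 7.28% and 6.4% of all genes tested had Beta-Ac libraries wholly below saline. After 5 d of the clinical drug CD68 measured 14.7, 12.6 and 12.4 CPM.

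The ratio of CD163 to CD68 within a library, which does not depend on depth, was highest in the same libraries. On the log2 scale it was -0.06, -1.30 and -0.26 in saline and 1.91, 0.10 and 2.09 at 4 h after the clinical drug. All 3 treated libraries were above saline, replicate 2 by the least. The ratio ran from -0.08 to 1.35 at 6 h after Beta-Ac, and at 5 d from -0.44 to 0.20 after the clinical drug and from -0.05 to 0.40 after Beta-Ac, so that replicate 2 lay within the range of each of these groups. A ratio within a library shows that CD163 and CD68 differed in their change, not which of them moved.

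S100A9, the larger subunit of calprotectin, is made by neutrophils as well as by monocytes (ENSMMUG00000006868). It measured 4.1, 5.55 and 8.33 CPM in saline libraries and 20.8, 5.01 and 11.1 CPM at 4 h after the clinical drug. Replicates 1 and 3 were above the saline range and replicate 2 within it, the split that CD163 showed. The log2 fold change was 1.05 ± 0.52 with q = 0.207, and it was not called. Beta-Ac at 6 h gave S100A9 levels of 8.1, 10.4 and 8.39 CPM and a log2 fold change of 0.58 ± 0.52 with q = 0.53. At 5 d it was 8.16, 2.39 and 3.26 CPM after the clinical drug and 15.1, 12.5 and 5.64 CPM after Beta-Ac, with log2 fold changes against saline of -0.40 ± 0.53 and 0.88 ± 0.52, neither called.

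Of 12 neutrophil genes tested beside S100A9, only ELANE, neutrophil elastase, was called at 4 h after the clinical drug. It was called higher (8.33%, against 3.46% of all genes tested), at a log2 fold change of 0.84 ± 0.31 that lost its call each time an animal was left out. The summed level of the 14 neutrophil genes with a row ran from 34.1 to 41.1 CPM at 4 h and from 39.2 to 42.5 CPM in saline, and from 58.7 to 75.1 CPM at 6 h after Beta-Ac. MMP8 was at 0 in 9 of 15 libraries and CTSG in 7, and no neutrophil gene was called by edgeR or DESeq2 at 6 h, where 2 had an unadjusted p under 0.05. The part of neutrophils in the S100A9 levels was not tested.

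VCAN, the chondroitin sulfate proteoglycan versican, marks classical monocytes in blood and is also a matrix product of lung mesenchyme (ENSMMUG00000011513). It measured 199, 223 and 299 CPM in saline libraries and 148, 157 and 176 CPM at 4 h after the clinical drug. The 3 treated libraries were below every other lung library. VCAN fell 1.5-fold, by 0.59 ± 0.16 on the log2 scale (q = 0.0354), just past the fold threshold of 0.58, in a comparison where 3.94% of all genes tested were called lower and 10.2% had treated libraries wholly below saline. The call was lost without replicate 1 of the 4 h group (-0.55) and without saline replicate 3 (-0.40). After Beta-Ac VCAN measured 307, 240 and 243 CPM at 6 h and 222, 318 and 251 CPM at 5 d, within or beside the saline range, with a log2 fold change of 0.13 ± 0.16 (q = 0.599) at 6 h. At 5 d after the clinical drug it measured 231, 282 and 242 CPM.

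Of 6 fibroblast and smooth muscle genes, among them COL1A1 and DCN, none was called by edgeR or DESeq2 at 4 h after the clinical drug, and 0 had an unadjusted p under 0.05. Their summed level ran from 6900 to 7790 CPM in the treated and from 6380 to 8580 CPM in the saline libraries. HAS3, which makes the hyaluronan that versican binds, fell by 1.34 ± 0.25 on the log2 scale, from 17 ± 3.71 to 6.66 ± 0.637 CPM (SD, n = 3). ADAMTS1, a protease that cleaves versican, rose by 1.65 ± 0.25 on the log2 scale, from 120 ± 17.1 to 375 ± 59.1 CPM. With Beta-Ac at 6 h ADAMTS1 rose by 1.47 ± 0.25 to 331 ± 150 CPM, a call lost without saline replicate 1, with the first digits of the animal number as a term and in a fit of only the 2 groups (1.03 to 1.65 as each animal was left out), and HAS3 measured 17.7 ± 2.96 CPM, a log2 fold change of 0.06 ± 0.24.

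**Figure D2:**
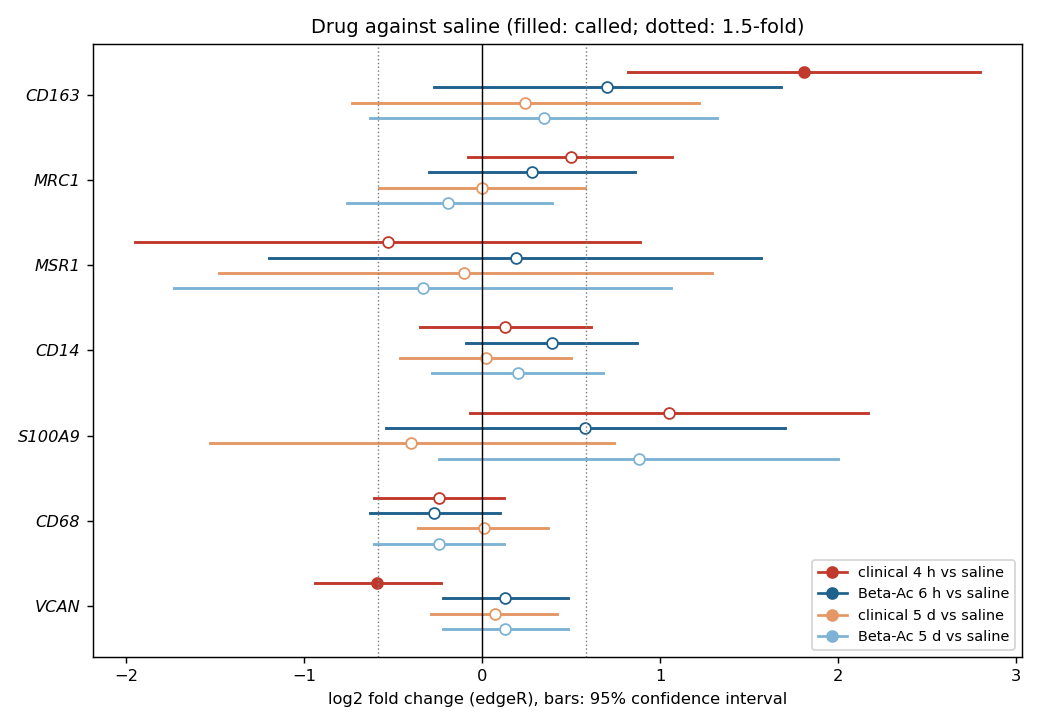
Log2 fold change against saline of the 7 genes tested, with 95% confidence intervals, for both drugs at the early time and at 5 d (n = 3 fetuses a group; filled points are called, dotted lines mark a 1.5-fold change). The filled points are CD163 (1.81) and VCAN (-0.59) at 4 h after the clinical drug, and every other interval reaches 0.

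No member was called at 6 h after Beta-Ac, where 0.442% of all genes tested were called. None was called at 5 d after the clinical drug, where the test called 0% of genes, or at 5 d after Beta-Ac, where it called 0.00567%. In these 3 comparisons edgeR gave 0 members an unadjusted p under 0.05, and edgeR's exact and likelihood ratio tests and DESeq2 also called 0 members. The widest interval at 5 d, for MSR1 after Beta-Ac, ran from -1.73 to 1.06 on the log2 scale, and for VCAN after the clinical drug it ran from -0.29 to 0.42.

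The direct comparison of the 2 early groups sets the clinical drug at 4 h against Beta-Ac at 6 h, so that ester, dose and time all differ and cannot be told apart. VCAN was lower after the clinical drug by 0.72 ± 0.16 on the log2 scale (q = 0.019), with no overlap between groups, in a comparison where 6.74% of all genes tested were called, 4.11% were called lower and 10.7% were wholly lower without overlap. CD163 was higher by 1.10 ± 0.45 (95% confidence interval 0.15 to 2.06), with an unadjusted p of 0.027 and q = 0.111, short of the threshold. Without replicate 2 of the 4 h group CD163 differed by 1.52 with q = 0.0274, and DESeq2 gave q = 0.0894, both past it, while without replicate 1 of that group it differed by 0.66 with q = 0.226. S100A9 (0.47 ± 0.51) and MSR1 (-0.72 ± 0.65) did not pass the test, and S100A9 turned to -0.16 without replicate 1 of the 4 h group.

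No member was called between the 2 drugs at 5 d, by edgeR, where 0% of genes were called, or by DESeq2, and 1 had an unadjusted p under 0.05. That was S100A9, lower after the clinical drug by 1.28 ± 0.52 on the log2 scale at an edgeR p of 0.0287 and q = 0.999. CD68 was higher after the clinical drug in every library, by 0.25 ± 0.17 (q = 0.999), where 6.25% of all genes tested had groups that did not overlap in that direction.

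Between 4 h and 5 d after the clinical drug, 3 members were called, where 10.4% of all genes tested were called, 4.47% higher and 5.92% lower. CD163 was higher at 4 h by 1.56 ± 0.45 on the log2 scale (q = 0.0288), and the call was lost without 5 d replicate 3 (1.40, q = 0.103). S100A9 was higher at 4 h by 1.45 ± 0.53 (q = 0.0672), and the call was lost without 4 h replicate 1 (0.80) or replicate 3 (1.51) and without 5 d replicate 2 (1.13) or replicate 3 (1.23). VCAN was lower at 4 h by 0.65 ± 0.16 (q = 0.0154), with no overlap (13.5% of all genes tested were wholly lower), and without 5 d replicate 2 the difference of -0.56 fell short of 1.5-fold. MRC1 differed by 0.50 ± 0.27 (q = 0.175), by 0.79 with q = 0.0124 without 4 h replicate 2, and by 0.04 without 4 h replicate 1. Between 6 h and 5 d after Beta-Ac no member was called by edgeR or DESeq2 and 0 had an unadjusted p under 0.05, where 0.261% of all genes tested were called, and S100A9 differed by -0.30 ± 0.51.

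The animal numbers in the library names share their first digits in all 3 animals of the 4 h clinical drug group and in saline replicates 1 and 2, and differ from these in all other lung animals. What the digits stand for is not given in the sources used here. Only the 3 saline animals can estimate them as a term. With this term, CD163 kept its call at 4 h against saline (1.87) and VCAN did not (-0.40). In that comparison the term in effect sets aside saline replicate 3, and leaving that animal out gave the same values. The term is therefore not a separate check there. With it, no member was called between the early groups or between 4 h and 5 d of the clinical drug.

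Other genes of macrophages and monocytes, from a list of 45 of which 30 were tested, mostly had log2 fold changes of the opposite sign to that of CD163 at 4 h after the clinical drug. Of the 30, 22 had a negative log2 fold change, with a median of -0.45 against 0.02 over all genes tested. The test called 6 lower (20% of those tested, against 3.94% of all genes) and 1 higher. The list was drawn up with earlier results of these data known, so its share of called genes is a description. IRF8, a transcription factor of monocyte development, fell by 1.35 ± 0.16 on the log2 scale, from 22.1 ± 3.75 to 8.68 ± 1.37 CPM. PTPRC, the pan-leukocyte antigen CD45, fell by 1.28 ± 0.36, from 30.6 ± 5.4 to 12.4 ± 7.57 CPM. Also called lower, and named here after their values were seen, were the folate receptor FOLR2 (-1.06), the coagulation factor subunit F13A1 (-0.97) and the lysosomal protease CTSS (-0.61). Other genes of the list, also named after their values were seen, stayed near saline and were not called. C1QC measured 17.3 ± 6.69 CPM in saline and 18.4 ± 6.52 CPM at 4 h, and LYVE1 28.2 ± 15.8 and 30.8 ± 6.91 CPM. VSIG4 measured 3 ± 0.95 and 3.08 ± 2.22 CPM, and FCGR1A 3.73 ± 0.548 and 3.58 ± 0.569 CPM.

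The one called higher was MERTK, which rose by 1.65 ± 0.25 on the log2 scale, from 27.3 ± 1.59 to 85.4 ± 20.6 CPM, with no overlap (11.1% of all genes tested were wholly higher). MERTK is also made by cells other than macrophages. It rose by 1.20 ± 0.24 at 6 h after Beta-Ac, to 62.8 ± 27.2 CPM, the only called gene of the 30 there. That call was lost without any 1 of the saline libraries or replicate 3 of the 6 h group (0.79 to 1.39 as each animal was left out). It was also lost with the first digits of the animal number as a term and in a fit of only the 2 groups. At 5 d MERTK measured 28.3 ± 3.29 CPM after the clinical drug and 25.4 ± 3.63 CPM after Beta-Ac. PLD3 and STAB1, the list members with the highest mean CPM, gave log2 fold changes of 0.02 ± 0.08 and -0.43 ± 0.13 at 4 h after the clinical drug, and neither was called.

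IRF8, PTPRC and MERTK kept their calls at 4 h whichever animal was left out, and the others did not. The count called lower was 2 without replicate 2 of the 4 h group, saline replicate 1 or saline replicate 3, 4 without replicate 3 of the 4 h group, and 9 without replicate 1 of that group. By library, the median difference of the 30 genes from the saline mean on the log2 CPM scale was -0.29, -0.93 and -0.37 at 4 h after the clinical drug, and 0.14, -0.03 and -0.08 in saline. All 3 treated libraries were below saline, and those with high CD163 were among them. The medians in the other 3 drug groups ran from -0.01 to 0.14.

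**Figure D3:**
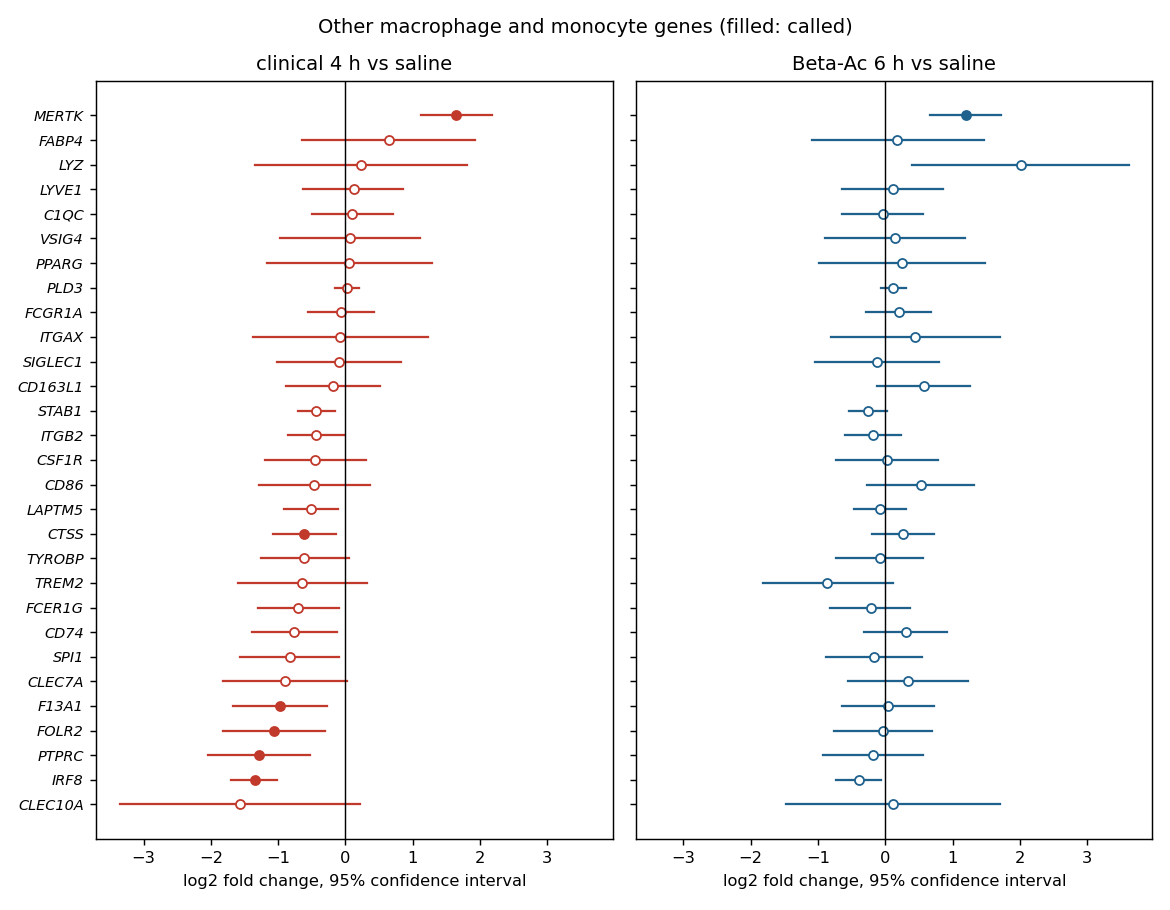
Log2 fold change against saline with 95% confidence intervals of 29 of the 30 other macrophage and monocyte genes, at 4 h after the clinical drug (left) and at 6 h after Beta-Ac (right), in the order of the left panel (n = 3 fetuses a group; filled points are called). At 4 h 21 of 29 points lie below 0, the medians over all 30 genes are -0.45 at 4 h and 0.07 at 6 h, and MERTK is called higher in both panels.

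For Beta-Ac at 6 h 0 of the 30 were called lower by edgeR or DESeq2, 17 were positive and 13 negative, and 3 had an unadjusted p under 0.05. At 5 d edgeR and DESeq2 called 0 for either drug, with medians of 0.05 and 0.05 and 0 genes at an unadjusted p under 0.05. Set directly against Beta-Ac at 6 h, the clinical drug at 4 h had 8 of the 30 called lower (26.7%, against 4.11% of all genes tested) and 0 higher by edgeR or DESeq2, with a median of -0.47. IRF8 was lower there by 0.96 on the log2 scale (q = 0.0045). Without replicate 2 of the 4 h group or replicate 3 of the 6 h group the count was 4.

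Of 3 lymphocyte genes tested, 1 was called lower at 4 h after the clinical drug (33.3%, against 3.94% of all genes tested). CD3E, a subunit of the T cell receptor complex, fell by 2.09 ± 0.48 on the log2 scale and kept its call in all 6 leave-outs, and all 3 log2 fold changes were negative. Their summed level was 1.94 to 7.82 CPM in the treated and 7.73 to 14.5 CPM in the saline libraries, with an overlap between treated replicate 3 and saline replicate 3. The part of lymphocytes in the levels of genes that leukocytes share, such as PTPRC, was not tested.

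Among 9 tested genes of growth factors, chemokines and receptors of the myeloid lineage, CCL2, which draws monocytes into tissue, fell by 2.22 ± 0.42 on the log2 scale at 4 h after the clinical drug, from 12.8 ± 2.15 to 2.7 ± 1.18 CPM. The call was kept in all 6 leave-outs. FLT3, a receptor of early myeloid and dendritic precursors, rose by 1.43 ± 0.40, from 2.16 ± 0.393 to 5.73 ± 3.95 CPM, but lost its call without replicate 1 of the 4 h group, saline replicate 2 or saline replicate 3. CSF1R, the receptor that macrophages need to survive, measured 37.3 ± 15.7 CPM in saline and 27.1 ± 14.8 CPM at 4 h and was not called. After 6 h of Beta-Ac none of the 9 was called by edgeR or DESeq2 and 2 had an unadjusted p under 0.05. CCL2 measured 6.45 ± 3.23 CPM there, at a log2 fold change of -0.98 ± 0.40 (q = 0.295). It was below saline in every library, as were 7.28% of all genes tested.

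Of 28 tested partners of the members, which include ligands, co-receptors, handlers of iron and versican enzymes, 5 fell (17.9%, against 3.94% of all genes tested) and 2 rose (7.14%, against 3.46%) at 4 h after the clinical drug. TLR4, the signalling receptor that CD14 serves, fell by 1.08 ± 0.40 on the log2 scale, from 4.48 ± 1 to 2.01 ± 1.42 CPM, but kept its call only when replicate 1 of the 4 h group was left out, with values from -1.86 to -0.76. The remaining calls, named after their values were seen, were the scavenger receptors COLEC12 (-0.83) and STAB2 (-0.76), the iron exporter SLC40A1 (-0.71) and the protease ADAMTS9 (0.60), beside HAS3 and ADAMTS1 above. ADAMTS9 kept its call only without replicate 1 of the 4 h group (0.53 to 0.67), and STAB2 lost it without replicate 3 of that group or saline replicate 2 (-0.96 to -0.49). COLEC12, STAB2 and SLC40A1 are also made by endothelial or stromal cells, and the 4 endothelial genes went both ways in the same comparison. KDR was called, at -1.16 ± 0.14 on the log2 scale, while CDH5 (-0.43 ± 0.14), PECAM1 (0.22 ± 0.13) and VWF (0.59 ± 0.23) were not. The part of endothelial cells in these levels was not tested. With Beta-Ac at 6 h 1 of the 28 was called (3.57%, against 0.442% of all genes tested), ADAMTS1.

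Over the 15 libraries, CD163 and MRC1 varied together, with a Pearson r of 0.79 between their log2 CPM and of 0.84 after subtraction of group means. These points share libraries, depth and scaling, and the values are descriptions. Within the 12 libraries outside the 4 h clinical drug group the second value was 0.59. Within groups MSR1 followed CD163 at 0.78 and MRC1 at 0.77, values that were 0.24 and -0.34 without the 4 h group. Before subtraction of group means they were 0.18 and 0.45. MSR1 had 0 reads in replicate 2 of the 4 h group, the library with the lowest MRC1. CD14 and CD68 varied inversely, at -0.65 over all libraries and -0.63 within groups, and at -0.22 without the 4 h group. Other pairs were larger in size without the 4 h group, among them MRC1 with CD68 (0.22 with the group and -0.74 without it) and MSR1 with CD68 (0.45 and 0.63).

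**Figure D4:**
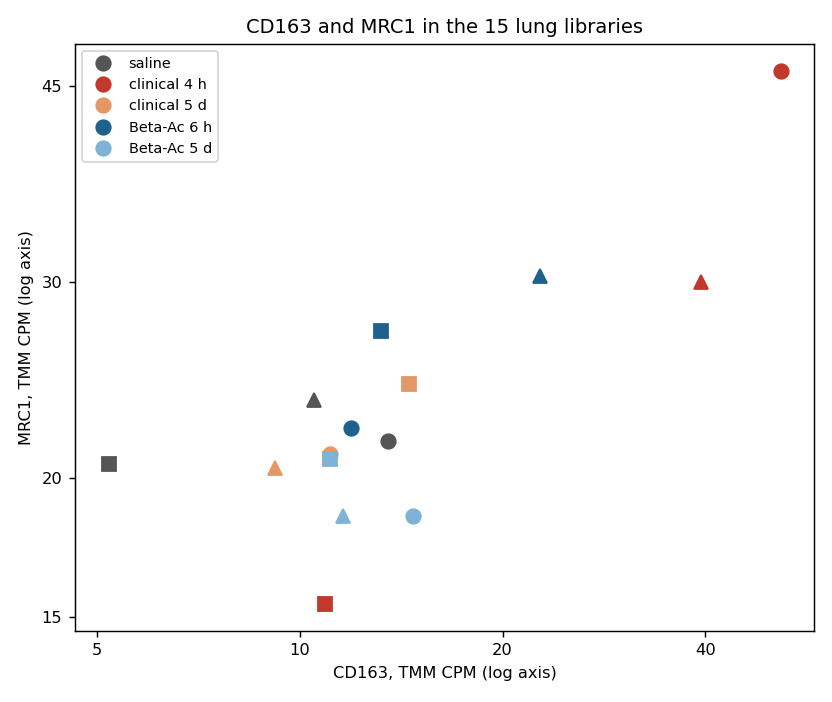
CD163 against MRC1 in TMM-scaled CPM on log axes, 1 point for each of the 15 lung libraries, coloured by group; circles, squares and triangles are replicates 1, 2 and 3. The 4 h clinical drug libraries spread from 10.9 CPM of CD163 with 15.4 of MRC1 to 51.8 with 46.5, wider than all other groups.

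The genes with a symbol whose log2 CPM was most like that of CD163 over the 15 libraries were STAT3 (r = 0.92), MKNK2 (0.90) and GOLPH3 (0.90). For MRC1 they were TGFBR3 (0.90), FCAR (0.90) and FZD4 (0.87), and for MSR1 TGFBRAP1 (0.92), AADAC (0.91) and FCER1A (0.90). For CD14 they were NPAS2 (0.89), SNORD83B (0.83) and GLIPR2 (0.79), and for CD68 KDM6B (0.85), PAK6 (0.82) and HHIPL1 (0.79). VCAN was most like HGF (0.88), SLC1A3 (0.87) and PLXNC1 (0.87), and S100A9 most like CAB39L (0.82), STRADB (0.79) and ART5 (0.78). No gene of these 21 was itself a member, and each r was taken as the highest over the genes tested.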

How the data were processed

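Paired-end reads of 75 bp were aligned by the authors to rhesus build MMUL1.0 with Bowtie 2, and the authors deposited whole-number read counts per Ensembl gene made with featureCounts. For lung libraries the submitters' processing notes also name Bowtie 1.2.1.1 and featureCounts 1.5.1. Counts were used as deposited. Symbols came from an Ensembl name table and matched 52.1% of lung identifiers, and genes without a match were not analysed here. A gene counted in the macrophage list is not reported here by name. No sequences or coordinates are given.

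A gene entered the test if 3 or more libraries had 7 or more of its reads. The test was that of edgeR 4.0.16 (R 4.3.3, TMM, quasi-likelihood F-test, a single fit of all 15 lung libraries). Adjustment was Storey's. Prior counts were 0.125 for fold changes and 2 for log2 CPM. In simulated counts for 4 h of the clinical drug against saline (17404 genes), 67.8% of 2-fold and 89.1% of 4-fold changes were recovered, and for Beta-Ac at 6 h (17424 genes) 62.6% and 82.2%. Of the calls, 6.47% and 7.05% were false. Changes were placed only in genes above a minimum of total reads, and no simulated library stood apart as replicate 2 of the 4 h group did. Replicates differed by more than counting noise. Labels name 1 fetus per library, and p-values measure only the spread between these fetuses.

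The member symbols and the gene lists were drawn up with earlier results of these data known, so the shares of them called are descriptions. Named from each list were the 3 called genes with the largest change against saline and the members with the highest mean CPM, with exceptions stated. Likeness took the 3 symbols with the highest r. Lists covered other macrophage and monocyte genes, myeloid growth factors, partners, neutrophils, lymphocytes, fibroblasts and smooth muscle, endothelium, lung epithelium, red cells, platelets and glucocorticoid targets. Alternatives were RLE scaling, other read minimums, Benjamini-Hochberg, no fold threshold, only 2 groups, exact and likelihood ratio tests, DESeq2 1.42.0, the animal number prefix, and each animal left out.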

Additional observations from a re-analysis of the deposited data

Results flagged for a closer look

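The levels after the clinical drug differed between its 2 times in 3 members, by the test of the difference between 4 h and 5 d, in which the shared saline libraries cancel. The log2 difference was 1.56 for CD163, 1.45 for S100A9 and -0.65 for VCAN. With the animal number prefix as a term none of the 3 was called and VCAN differed by -0.14, and S100A9 also lost its call in 4 of 6 leave-outs and with Benjamini-Hochberg adjustment. In VCAN the early effects of the 2 drugs also differed, by -0.72, with ester, dose and time all different between the groups, and by -0.21 with the prefix term, where it was not called.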

How the results depend on the processing

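Of the counts of called members, those of 0 stayed at 0 under every alternative run. For the clinical drug at 4 h against saline, 2 members were called, 1 with only the 2 groups fitted, and 1 to 3 with an animal left out. The animal number prefix as a term also gave 1, and there it repeats leaving out saline replicate 3. Against Beta-Ac at 6 h, 1 was called, 2 by the likelihood ratio test and by DESeq2, 0 with the prefix term, and 1 to 2 with an animal left out. Against 5 d, 3 were called, 0 with the prefix term and 1 to 4 with an animal left out. Counts of other macrophage and monocyte genes called lower were an alternative chosen after seeing the data. In the same order they made up 20%, 26.7% and 36.7% of the 30 tested, against 3.94%, 4.11% and 5.92% of all genes tested. As numbers of genes the counts were 6, 8 and 11. They were 2, 4 and 7 without a read minimum, 2, 5 and 7 with Benjamini-Hochberg adjustment, 2, 0 and 1 with the prefix term, and 2 to 9, 4 to 11 and 6 to 15 with an animal left out; with only the 2 groups fitted the first and second were 1 and 1. The cause was not tested. Signs and leave-out ranges were followed in a set of member results that left out several of those nearest 0. In that set, log2 fold changes that turned sign were those of MSR1 (-0.11) and VCAN (-0.18) at 6 h after Beta-Ac with the prefix term. With an animal left out, ranges crossing or reaching 0 were -0.27 to 0.37 for CD14 at 4 h, -0.13 to 0.37 for MSR1 and 0.00 to 0.32 for VCAN at 6 h, -0.05 to 0.54 for CD163 at 5 d after the clinical drug, and -0.16 to 0.83 for S100A9 between the early groups. With the prefix term VCAN differed by -0.21 between the early groups and -0.14 between 4 h and 5 d, CD163 by 1.73 and S100A9 by 2.24, none called. S100A9 lost its call between 4 h and 5 d with Benjamini-Hochberg adjustment (q = 0.11), without a read minimum (1.43) and in a fit of only the 2 groups (1.43). No paired analysis applied, because each lung library has its own animal number and each fetus was in a single group. MARCO was below the read minimum, and the part of depth in this was not tested.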

Other observations

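In the hippocampus of 15 fetuses of the series, a table normalized separately and described here as levels only, all 9 genes had a row. CD163 had 11.4 to 21.7 CPM (median 15.8), MRC1 3.24 to 9.87 (median 6.01), CD14 4.54 to 8.67 (median 6.81) and CD68 2.27 to 5.47 (median 3.43). VCAN had 63.3 to 201 CPM (median 103) and MSR1 0.272 to 0.952 (median 0.647). S100A9 had 0.0361 to 0.616 CPM, from 1 to 12 reads a library, where the lowest lung library had 2.39 CPM. MARCO had 0 to 3 reads a library and S100A8, which had a row in this table, 0 to 6. Treatment labels of these libraries conflict with their titles, so no groups were compared.

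In lung, red cell genes varied widely with 0 calls against saline by edgeR or DESeq2 in any drug group, and edgeR gave 0 of 6 an unadjusted p under 0.05 in each. Their median difference from the saline mean on the log2 CPM scale reached 3.23 in replicate 3 of the 6 h Beta-Ac group, the library with the highest CD163 of that group. It was 1.72 in saline replicate 2, the library with the lowest CD163 of all. Of 3 platelet genes ITGA2B fell by 1.02 at 4 h after the clinical drug, a call kept only without saline replicate 1. Of 9 lung epithelial genes 2 rose there (22.2%, against 3.46% of all genes tested), the surfactant protein SFTPC by 1.13 and the lipid transporter ABCA3 by 0.93. Of 4 glucocorticoid target genes tested, 3 were called higher at both early times (75%, against 3.46% of all genes tested at 4 h). At 6 h after Beta-Ac 0.442% of all genes tested were called.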
